A study of Mus musculus with 9 samples.

Results

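A set of 9 listed genes of serine synthesis and the folate cycle were followed in RNA sequencing of whole mouse liver: Phgdh, Psat1, Psph, Shmt1, Shmt2, Mthfd1, Mthfd2, Mthfd1l and Mthfd2l. The genes were taken by name from the 24421 gene symbols of the count tables, and all 9 were present. The series held 5 libraries of control littermates (WT, labelled wildtype) and 4 libraries of OGT-deficient liver, in which the gene for O-GlcNAc transferase, the enzyme that attaches N-acetylglucosamine to intracellular proteins, had been deleted. All mice were of the C57BL/6J strain, aged 5 weeks and without food for 6 h. The design text says that both sexes were used, without giving the sex of a library. The Y-linked Ddx3y stood at 55.4 to 91.1 CPM in all 9, so each library held male tissue and no library was from females alone. How and in which liver cells OGT was deleted is not given in the sources used here. Nothing beyond a number of mice equal to the number of libraries says that libraries are separate animals, so the p-values measure the spread between these samples.

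Serine is made from the glycolytic intermediate 3-phosphoglycerate in steps catalysed by phosphoglycerate dehydrogenase (Phgdh), phosphoserine aminotransferase (Psat1) and phosphoserine phosphatase (Psph). Serine hydroxymethyltransferases then pass a carbon of serine to tetrahydrofolate, and Mthfd enzymes carry that carbon through the oxidation states used for purines, thymidylate and methionine. The cycle runs in parallel in the cytosol, with Shmt1 and the trifunctional Mthfd1, and in mitochondria, with Shmt2, Mthfd2, Mthfd2l and Mthfd1l, the last of which releases formate. The liver is a major organ of serine and folate metabolism, and Mthfd2 is known for low expression in most adult tissues.

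Libraries held 32337861 to 54130901 counts assigned to genes, so 3 counts corresponded to 0.0554 to 0.0928 CPM (counts scaled to the library size). Ogt itself was 51.1 to 73.1 CPM in the WT libraries and 14.3 to 20.6 CPM in the OGT-deficient libraries, so each library carried the change its label names. Alignments to more than a single place, which entered no gene count, numbered 0.314 to 1.02 per assigned read in WT and 0.205 to 0.224 in OGT-deficient libraries.

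The enzymes did not move as a block. The first serine synthesis enzymes, Phgdh and Psat1, and the mitochondrial enzymes Mthfd2 and Mthfd1l rose in OGT-deficient liver, while both cytosolic enzymes, Shmt1 and Mthfd1, and the mitochondrial Shmt2 fell. Psph and Mthfd2l did not pass the test. In the quasi-likelihood test of edgeR, 7 of 9 genes passed an adjusted p under 0.05, and 61.1% of the 14104 tested genes did so. Of the 9, 4 were higher and 3 lower, where 31.6% of tested genes were higher and 29.4% lower. With 9 genes, these shares do not set the enzymes apart from other genes. The groups did not overlap for 6 of the 9, against 51.3% of tested genes. The median absolute log2 fold change was 1.06, where that of all tested genes was 0.45, and the signed median was 0.67 against 0.02. All 9 passed the filter on low counts, 8 of them on the WT libraries alone and Phgdh through the OGT-deficient libraries. A fall or rise in whole liver cannot tell fewer cells of a type from less RNA per cell.

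**Figure D1:**
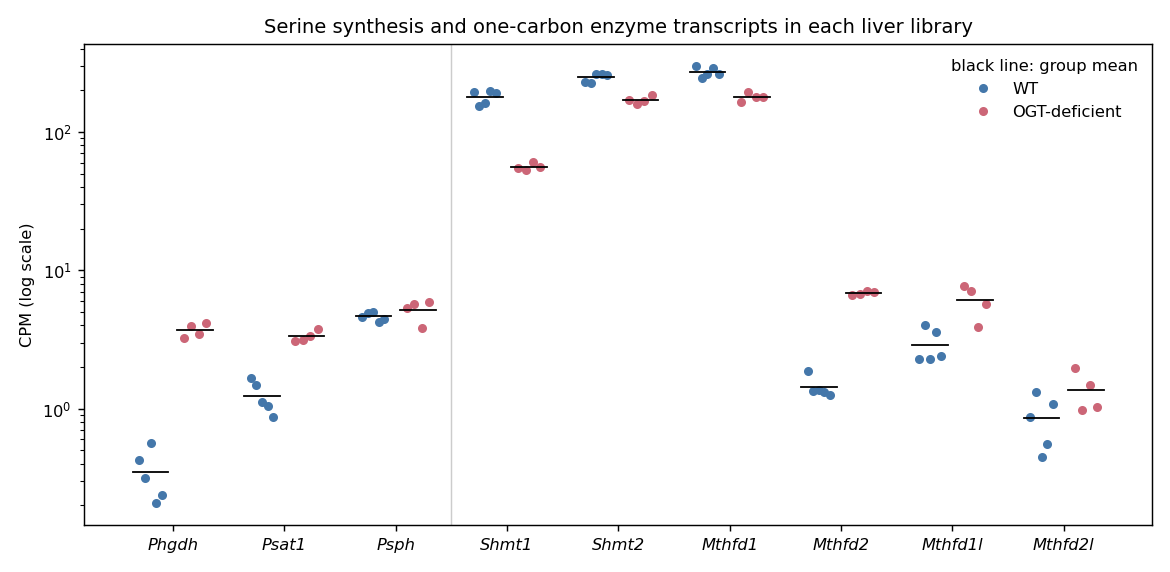
TMM-scaled CPM (log axis) of the 9 genes in each library, with points for the 5 WT and 4 OGT-deficient libraries and a black line at each group mean. Shmt1, Shmt2 and Mthfd1 lie above 50 CPM in every library, and the other 6 genes lie below 8 CPM.

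**Figure D2:**
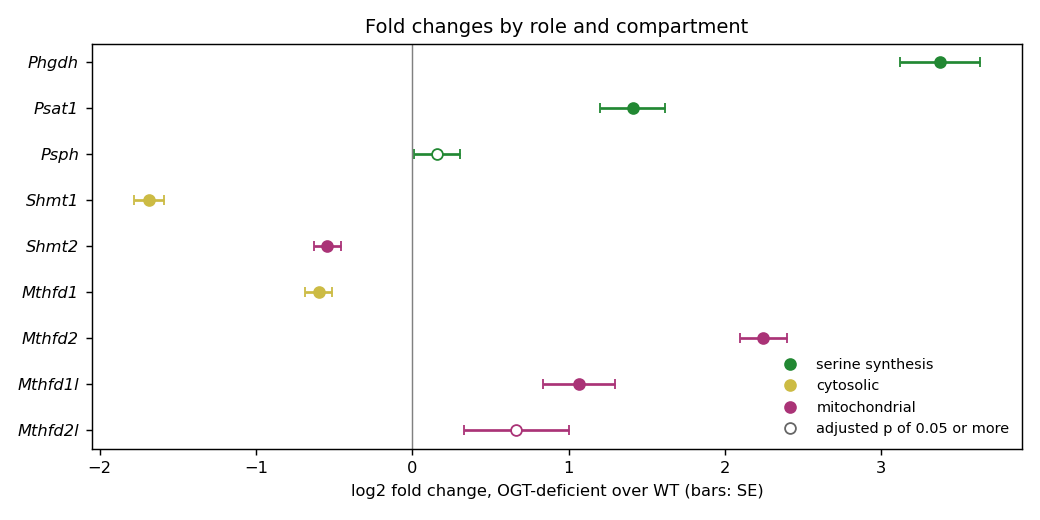
Log2 fold change of OGT-deficient over WT liver with its standard error, coloured by role or compartment, with open circles where the adjusted p was 0.05 or more. The values run from -1.68 for Shmt1 to 3.37 for Phgdh.

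Phgdh (chromosome 3, 98313170 to 98339990, minus strand, GRCm38), the entry enzyme, had few counted reads in WT liver. In WT 1 to 5 it stood at 0.427, 0.315, 0.561, 0.208 and 0.238 CPM (6 to 20 counts each), against 3.27, 3.98, 3.47 and 4.14 CPM in OGT-deficient 1 to 4. The lowest OGT-deficient library stood above the highest WT library. Mean CPM was 0.350 ± 0.145 (SD, n = 5) in WT and 3.71 ± 0.413 (SD, n = 4) in OGT-deficient liver, and the log2 fold change from edgeR was 3.37 ± 0.26 (SE), with an adjusted p of 4.03e-07, a 10.4-fold rise. Of all tested genes, 1.71% had a larger log2 fold change. The low-count filter asked for 4 libraries, and Phgdh reached it in 3 WT and 4 OGT-deficient libraries. It was thus tested only through the group where it is high, and its rank among tested genes is description only. Without the filter its log2 fold change from edgeR was 3.36, with an adjusted p of 7.13e-08. Of the 1844 stretches of 50 bases in its longest transcript, 63.1% also occur in another annotated gene, and reads that align to several places were not counted, so the level of Phgdh is uncertain. Of the 23 genes that share stretches, 3 are listed in the count tables, and they held at most 2 counts in a library. The share of multiple alignments differed between the groups as given above, and its part in the Phgdh value was not tested.

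Psat1 (chromosome 19, 15904678 to 15947337, minus strand), the next enzyme, rose less. In WT 1 to 5 it stood at 1.67, 1.49, 1.12, 1.04 and 0.864 CPM, against 3.08, 3.15, 3.33 and 3.75 CPM in OGT-deficient 1 to 4. The groups did not overlap, and WT 1 and WT 2 were the highest controls. Mean CPM was 1.24 ± 0.331 (SD, n = 5) in WT and 3.33 ± 0.299 (SD, n = 4) in OGT-deficient liver, and the log2 fold change from edgeR was 1.41 ± 0.21 (SE), with an adjusted p of 8.01e-05.

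Psph (chromosome 5, 129765558 to 129787449, minus strand), the last enzyme, which removes phosphate to give serine, had the highest level per kilobase of exon of this arm in WT liver. The WT libraries 1 to 5 gave 4.61, 4.91, 4.99, 4.23 and 4.44 CPM, and OGT-deficient 1 to 4 gave 5.33, 5.67, 3.85 and 5.92 CPM. OGT-deficient 3 was the lowest of all 9 libraries and the other OGT-deficient libraries lay above all WT libraries. The log2 fold change from edgeR was 0.16 ± 0.15 (SE), with an adjusted p of 0.360. Exons of Cct6a, itself at a log2 fold change of -0.09 (adjusted p = 0.401), cover 10.4% of the exonic bases of Psph.

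Within the arm, transcripts shifted toward the first step. The log2 ratio of Psph to Phgdh counts was 3.40, 3.92, 3.12, 4.24 and 4.14 for WT 1 to 5, compared with 0.71, 0.51, 0.15 and 0.52 for OGT-deficient 1 to 4. Its mean fell by 3.29 on the log2 scale, and that of Psat1 to Phgdh fell by 1.99, from 1.83 ± 0.51 (SD, n = 5) to -0.16 ± 0.13 (SD, n = 4). Neither ratio overlapped between the groups. Each had a two-sided exact permutation p of 0.0159, the smallest possible with 5 and 4 libraries. Adjusted by Benjamini-Hochberg over the 7 ratios computed between these enzymes, it was 0.0185. Both ratios carry the uncertainty of Phgdh, whose WT level lies below 1 CPM. With 1 CPM added to both genes the fall was smaller, with differences of -1.68 for Psph to Phgdh and -0.84 for Psat1 to Phgdh, at the same exact permutation p of 0.0159.

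Promoter letters are shown for the genes with the largest rises, Phgdh and Mthfd2, and for the Shmt pair, which fell to different extents. The windows come from RefSeq (GRCm38.p6), reach up to 250 bases before the transcription start and leave out bases in annotated exons. They run 5′ to 3′ on the strand of the gene. Those of Mthfd2 and Shmt1 lie inside the annotated spans of these genes given below. Capitals mark a match to a searched motif.
Phgdh, chr3:98339991-98340219, minus strand: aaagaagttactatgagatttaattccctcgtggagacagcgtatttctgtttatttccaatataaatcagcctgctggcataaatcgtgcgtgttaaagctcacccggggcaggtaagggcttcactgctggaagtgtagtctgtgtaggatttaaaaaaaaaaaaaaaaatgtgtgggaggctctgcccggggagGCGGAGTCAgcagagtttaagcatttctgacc
Mthfd2, chr6:83317607-83317854, minus strand: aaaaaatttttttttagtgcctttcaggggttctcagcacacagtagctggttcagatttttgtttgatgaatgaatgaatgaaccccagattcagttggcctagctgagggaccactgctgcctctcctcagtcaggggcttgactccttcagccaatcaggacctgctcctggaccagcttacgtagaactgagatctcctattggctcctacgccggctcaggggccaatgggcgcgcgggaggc
Shmt1, chr11:60811266-60811466, minus strand: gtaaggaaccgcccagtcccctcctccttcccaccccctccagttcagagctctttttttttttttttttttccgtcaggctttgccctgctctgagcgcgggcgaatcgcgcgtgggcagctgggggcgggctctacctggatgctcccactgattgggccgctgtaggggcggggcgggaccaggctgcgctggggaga
Shmt2, chr10:127522445-127522694, minus strand: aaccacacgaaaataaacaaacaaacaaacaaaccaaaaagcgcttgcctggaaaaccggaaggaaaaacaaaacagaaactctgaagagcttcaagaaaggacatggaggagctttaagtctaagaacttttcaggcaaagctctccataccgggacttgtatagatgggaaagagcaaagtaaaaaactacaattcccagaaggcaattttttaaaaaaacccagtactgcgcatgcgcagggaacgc

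Motifs were searched on both strands in the 250 bases before each start, in 10 windows that cover all 9 genes (Psat1 has 2 starts). The C/EBP-ATF response element, TGATGNAA, the element that ATF4 binds at amino acid response genes, was found in 3.45% of all 32851 windows and in none of the 10. The E-box, CACGTG, which MYC and related factors bind, was found in 6.02% of all windows and in none of the 10. The core of the antioxidant response element, TGACNNNGC, which NRF2 binds, was found in 10.2% of all windows and in that of Phgdh alone among the 10. That match reads GCGGAGTCA in the printed orientation, lies 53 to 45 bases before the start and overlaps no other searched motif. These matches describe letters in these windows only.

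Shmt1 and Shmt2 pass the carbon of serine to folate in the cytosol and in mitochondria. Shmt1 (chromosome 11, 60788104 to 60811718, minus strand) had the largest fall of the 9 genes. In WT 1 to 5 it stood at 193.3, 153.7, 162.9, 196.7 and 191.0 CPM, against 55.0, 52.8, 60.3 and 55.4 CPM in OGT-deficient 1 to 4. The groups lay far apart, with no OGT-deficient library at 40% or more of the lowest WT library. Mean CPM was 179.5 ± 19.8 (SD, n = 5) in WT and 55.9 ± 3.15 (SD, n = 4) in OGT-deficient liver, and the log2 fold change from edgeR was -1.68 ± 0.10 (SE), with an adjusted p of 4.56e-08. Of all tested genes, 2.11% had a lower log2 fold change.

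Shmt2 (chromosome 10, 127517123 to 127522444, minus strand) fell by less. The WT libraries 1 to 5 gave 227.8, 225.1, 262.4, 263.6 and 256.7 CPM, and OGT-deficient 1 to 4 gave 168.5, 157.9, 167.2 and 185.0 CPM. The groups did not overlap. Its log2 fold change from edgeR was -0.54 ± 0.08 (SE), with an adjusted p of 0.000124.

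The SHMT transcripts shifted toward the mitochondrial enzyme. The log2 ratio of Shmt2 to Shmt1 counts was 0.24, 0.55, 0.69, 0.42 and 0.43 for WT 1 to 5, compared with 1.61, 1.58, 1.47 and 1.74 for OGT-deficient 1 to 4. All OGT-deficient ratios lay above all WT ratios. The mean difference was 1.14 (exact permutation p = 0.0159, adjusted 0.0185). Per kilobase of exon, Shmt2 made up 63.3 ± 2.69% (SD, n = 5) of the level of both genes in WT and 79.1 ± 1.26% (SD, n = 4) in OGT-deficient liver. Such a ratio does not depend on how libraries are scaled.

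Mthfd1 (chromosome 12, 76255298 to 76319803, plus strand), which carries the synthetase, cyclohydrolase and dehydrogenase activities of the cytosol on a single protein, fell. In WT 1 to 5 it stood at 299.8, 244.6, 261.3, 288.3 and 259.9 CPM, against 164.1, 192.7, 179.3 and 178.8 CPM in OGT-deficient 1 to 4. All OGT-deficient libraries lay below all WT libraries. Its log2 fold change from edgeR was -0.60 ± 0.09 (SE), with an adjusted p of 6.64e-05, a fold change close to that of Shmt2.

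Mthfd2 (chromosome 6, 83305691 to 83325908, minus strand), the mitochondrial dehydrogenase and cyclohydrolase known from embryonic and dividing cells, rose. The WT libraries 1 to 5 gave 1.88, 1.34, 1.37, 1.32 and 1.25 CPM, and OGT-deficient 1 to 4 gave 6.60, 6.73, 7.05 and 7.00 CPM. WT 1 stood above the other controls and well below every OGT-deficient library. The OGT-deficient values were the tightest of the 9 genes, with an SD of 3.17% of the mean. Mean CPM was 1.43 ± 0.253 (SD, n = 5) in WT and 6.84 ± 0.217 (SD, n = 4) in OGT-deficient liver, and the log2 fold change from edgeR was 2.24 ± 0.15 (SE), with an adjusted p of 1.46e-07.

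Mthfd2l (chromosome 5, 90931117 to 91021368, plus strand), its mitochondrial relative, was low and variable. In WT 1 to 5 it stood at 0.876, 1.32, 0.449, 0.555 and 1.07 CPM, against 1.98, 0.983, 1.49 and 1.03 CPM in OGT-deficient 1 to 4, from 16 to 94 counts. The groups overlapped. The log2 fold change from edgeR was 0.67 ± 0.33 (SE), with an adjusted p of 0.102, and 0.89 with adjusted p = 0.0440 without WT 2. At this depth the difference could not be told from the spread with all libraries in the fit.

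Mthfd1l (chromosome 10, 3973118 to 4167081, plus strand), the mitochondrial enzyme that releases formate to the cytosol, rose with some overlap. It stood at 2.29, 3.99, 2.30, 3.57 and 2.38 CPM for WT 1 to 5, compared with 7.65, 7.08, 3.89 and 5.75 CPM for OGT-deficient 1 to 4. OGT-deficient 3 fell just below WT 2, and the other OGT-deficient libraries lay above all controls. The log2 fold change from edgeR was 1.06 ± 0.23 (SE), with an adjusted p of 0.00157.

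Set against Mthfd1 within each library, the mitochondrial Mthfd genes gained. In WT 1 to 5 the log2 ratio of Mthfd2 to Mthfd1 was -7.31, -7.50, -7.56, -7.75 and -7.68, against -4.63, -4.84, -4.67 and -4.67 in OGT-deficient 1 to 4, a mean difference of 2.86 (exact permutation p = 0.0159, adjusted 0.0185). The difference was 1.66 for Mthfd1l to Mthfd1, from -6.57 ± 0.44 (SD, n = 5) to -4.92 ± 0.46 (SD, n = 4), with the same exact permutation p. Both ratios were free of overlap between the groups, including Mthfd1l, whose CPM values overlapped. For Mthfd2l to Mthfd1 the groups overlapped and the difference was 1.31 (exact permutation p = 0.0317, adjusted 0.0317). That call was lost without WT 1, 3, 4 or 5 (adjusted 0.0571 each) and without OGT-deficient 1, 3 or 4 (adjusted 0.0714 each). Between the mitochondrial relatives, the log2 ratio of Mthfd2 to Mthfd2l went from 0.83 ± 0.67 (SD, n = 5) to 2.37 ± 0.49 (SD, n = 4), a difference of 1.54 without overlap (exact permutation p = 0.0159, adjusted 0.0185). No 50-base stretch of Mthfd1, Mthfd2 or Mthfd1l occurs in another annotated gene, and 1.51% of those of Mthfd2l do.

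**Figure D3:**
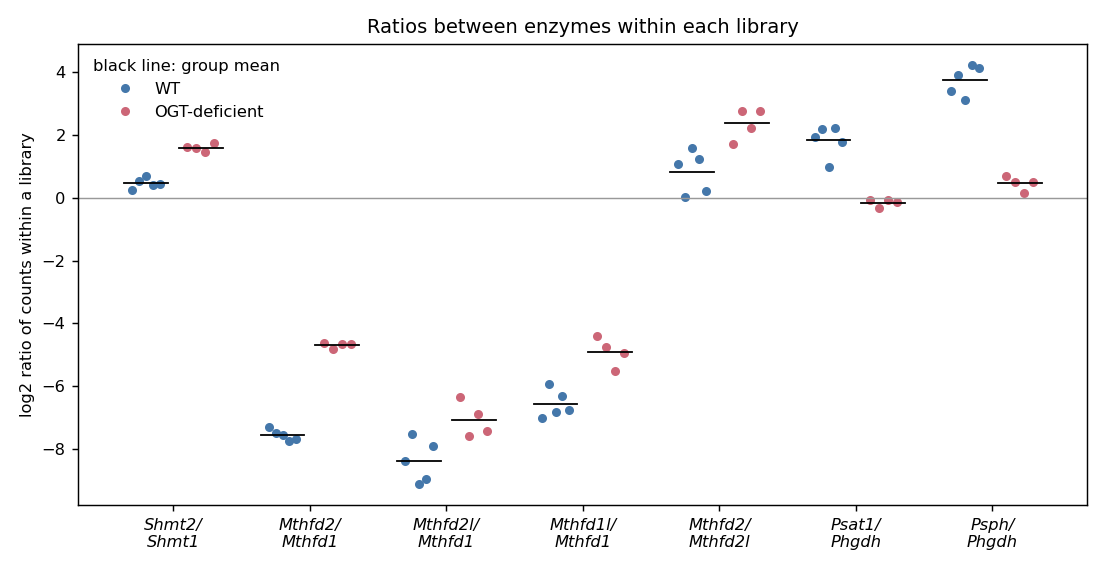
Log2 ratio of the counts of 2 enzymes within each library, for the 5 WT and 4 OGT-deficient libraries, with a black line at each group mean. The groups are apart for every pair except Mthfd2l to Mthfd1, and the Psph to Phgdh ratio falls by 3.29 with 0.5 counts added, as plotted, and by 1.68 with 1 CPM added.

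Levels of different genes were compared per kilobase of exon. In WT liver the order was Shmt2 (79.5 ± 6.13 CPM per kb, SD, n = 5), Mthfd1 (61.0 ± 5.09), Shmt1 (46.2 ± 5.09), Psph (1.07 ± 0.0737), Mthfd1l (0.655 ± 0.183), Mthfd2 (0.411 ± 0.0727), Psat1 (0.291 ± 0.0779), Phgdh (0.141 ± 0.0584) and Mthfd2l (0.129 ± 0.0544). Neighbours from Mthfd1l downward overlapped between libraries and the first 4 did not overlap with the next. The level split these enzymes into an abundant group of both Shmt enzymes and Mthfd1, and a scarce group of the rest. In OGT-deficient liver the order was Shmt2 (54.6 ± 3.63 CPM per kb, SD, n = 4), Mthfd1 (40.2 ± 2.63), Shmt1 (14.4 ± 0.812), Mthfd2 (1.96 ± 0.0622), Phgdh (1.49 ± 0.166), Mthfd1l (1.37 ± 0.377), Psph (1.20 ± 0.215), Psat1 (0.782 ± 0.0703) and Mthfd2l (0.206 ± 0.0703). Phgdh overlapped with Mthfd1l, and Mthfd1l with Psph, while the other neighbours did not overlap. Phgdh moved from rank 8 to rank 5 (from rank 9 when levels were divided by the longest transcript) and Mthfd2 from rank 6 to rank 4, but the abundant genes stayed far above them. The level and rank of Phgdh are uncertain in both groups, since 63.1% of its 50-base stretches also occur in another annotated gene. The 3 mitochondrial Mthfd genes together made up 1.94 ± 0.397% (SD, n = 5) of the level of the 4 Mthfd genes in WT and 8.12 ± 1.03% (SD, n = 4) in OGT-deficient liver. Mthfd1 stood 148.1-fold above Mthfd2 per kilobase in WT and 20.4-fold above it in OGT-deficient liver.

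**Figure D4:**
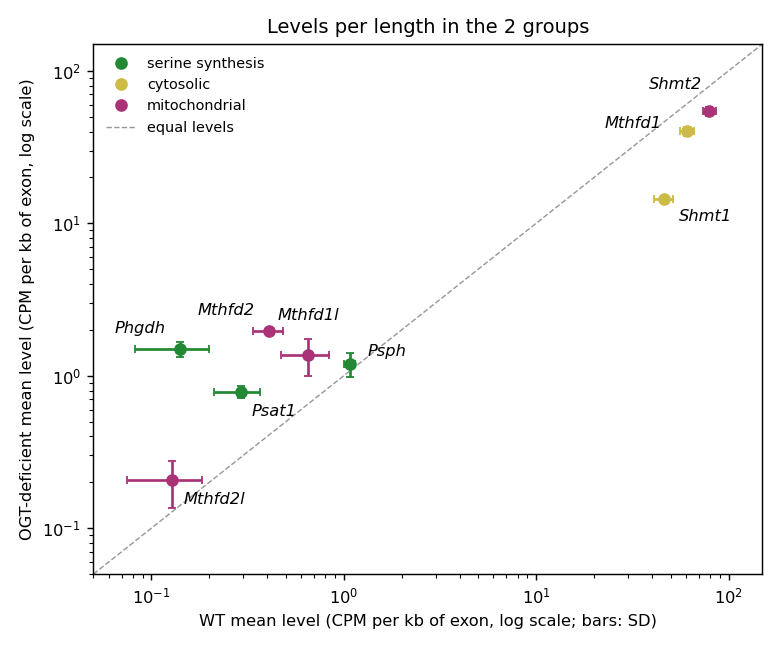
Mean level per kilobase of exon in OGT-deficient liver against WT liver on log axes, with SD bars and a dashed line of equal levels. Shmt2, Mthfd1 and Shmt1 sit at the upper right below the line, and Phgdh and Mthfd2 sit farthest above it.

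A set of 8 lists of genes around these enzymes were described in the same fit. In the glycine cleavage system, the mitochondrial complex that splits glycine to load folate, 3 of 4 genes fell and 1 rose. Gcsh, its lipoyl carrier, fell by 1.78 on the log2 scale, Amt fell by 1.53 and Dld fell by 0.51, while Gldc, the glycine decarboxylase, rose by 0.36. All 4 passed the test, where 61.1% of all tested genes did so. The groups did not overlap for any of the 4, against 51.3% of all tested genes without overlap.

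Among 17 tested genes of other folate enzymes and folate transport, 11 fell and 2 rose, where 29.4% of all tested genes were lower and 31.6% higher. The median was -0.39 on the log2 scale. The reduced folate carrier Slc19a1 went from 12.8 to 2.44 CPM (log2 fold change -2.39 and edgeR adjusted p = 4.88e-08). The histidine breakdown enzyme Amdhd1, which works upstream of a folate-dependent step, fell by 1.05. Among the rises was Aldh1l2, the mitochondrial formyl-folate dehydrogenase (0.284 to 1.18 CPM, log2 fold change 1.99 ± 0.52 (SE), edgeR adjusted p = 0.00493). Aldh1l2 was at 0 CPM in its lowest WT library, so the size of its rise is uncertain. Its cytosolic counterpart Aldh1l1 is named here with its values known. Aldh1l1 averaged 1502 CPM in WT against 973.2 CPM in OGT-deficient liver (edgeR log2 fold change -0.63 and adjusted p = 0.000304). This pair moved in opposite directions, while Shmt1 and Shmt2 both fell.

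The methionine cycle takes up the folate methyl group. Of its 13 tested genes 9 fell and 2 rose, where 29.4% of all tested genes were lower and 31.6% higher, and the median was -0.64 on the log2 scale against 0.02 over all tested genes. Gnmt, the glycine methyltransferase abundant in hepatocytes, fell by 1.26, Ahcy fell by 1.16 and Bhmt2 fell by 0.77 on the log2 scale. Mtrr, which reactivates methionine synthase, rose by 0.86, and Ahcyl2 rose by 0.33. The call of Ahcyl2 was lost, leaving 1 higher gene, without WT 2, OGT-deficient 1 or OGT-deficient 2. Of 17 genes of serine and glycine use and breakdown, 8 fell and 2 rose (median -0.38). The guanidinoacetate methyltransferase gene Gamt fell by 1.55, Grhpr fell by 0.89 and the phosphatidylserine synthase gene Ptdss2 fell by 0.77. Sptlc2, a subunit of the enzyme that joins serine to palmitoyl-CoA, rose by 0.38, and Cth rose by 0.27 (1 higher gene remained called without OGT-deficient 2). With upper-quartile scaling 4 genes of this list were higher.

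Purine synthesis consumes folate carbon, and 6 of its 12 genes fell and 3 rose, where 29.4% of all tested genes were lower and 31.6% higher. The median log2 fold change was -0.22, and 5 genes were higher with upper-quartile scaling. Impdh2 fell by 1.63, Paics fell by 1.28 and Ppat, the committed step, fell by 0.94, while Impdh1 rose by 0.81, Pfas by 0.46 and Prps2 by 0.40. The relatives Impdh1 and Impdh2 moved in opposite directions, while Shmt1 and Shmt2 both fell. Among 10 tested genes of serine and glycine transport, 4 rose and 4 fell. The plasma membrane carriers Slc1a5 and Slc1a4 rose by 1.28 and 1.26 and the sideroflexin gene Sfxn3 by 1.71, while Sfxn1, which carries serine into mitochondria, fell by 1.47, the mitochondrial glycine carrier gene Slc25a38 fell by 1.10 and Sfxn2 fell by 0.83.

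The list of regulators and partner genes of serine synthesis held 6 that rose and 7 that fell among 16 tested, with a median log2 fold change of -0.08. Fgf21 rose by 3.91, Nupr1 by 2.04 and Ddit3 by 1.07, while the kinase genes Eif2ak4 and Eif2ak1 fell by 0.61 and 0.52 on the log2 scale and Trib3 fell by 0.96. Without OGT-deficient 1, 3 genes were higher. Atf4, the transcription factor known for driving Phgdh, Psat1 and Mthfd2, is named here with its values known. It averaged 82.5 CPM in WT against 63.8 CPM in OGT-deficient liver (edgeR log2 fold change -0.37 and adjusted p = 0.00230). Its transcript fell where theirs rose. These are transcript levels only, and the part of ATF4 in the levels of the 3 genes was not tested. In the glycolytic list, which holds enzymes of steps before and after 3-phosphoglycerate, 3 of 8 tested genes rose and 2 fell. Pgk1, the enzyme that makes 3-phosphoglycerate, fell by 0.67 and Pklr fell by 2.05, while Pgam1 rose by 0.52, Bpgm by 0.38 and Pkm by 0.99. Over the 8 lists, 73 of 97 genes (75.3%) passed the threshold, beside 61.1% of all tested genes, and nothing particular to the lists is read from this.

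**Figure D5:**
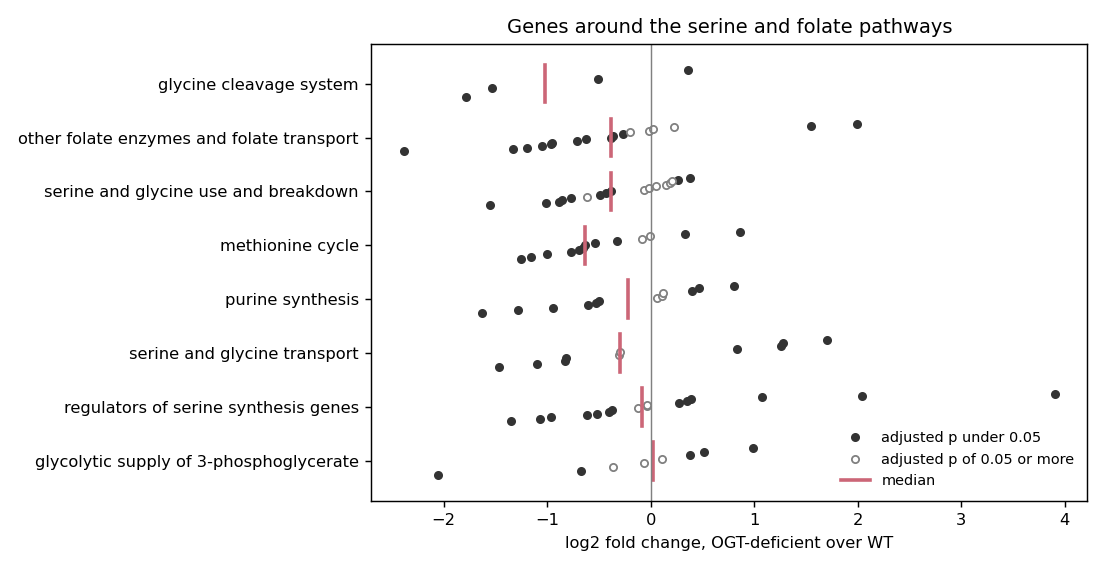
Log2 fold change of each tested gene in the 8 lists around serine and folate metabolism, filled where the adjusted p was under 0.05, with the list median as a vertical bar. The medians run from -1.02 for the glycine cleavage system to 0.02 for the glycolytic list.

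Markers of several cell types moved in the same libraries, and their part in the values of the enzymes was not tested. Of all tested genes, 31.6% were higher and 29.4% lower. All 12 proliferating cell markers rose, with a summed level of 25.3 to 61.8 CPM in WT and 158.2 to 216.7 CPM in OGT-deficient liver, among them Mcm6 (log2 fold change 2.68) and Mcm2 (1.83). Of 9 cholangiocyte markers 8 rose and 1 fell (49.5 to 79.6 CPM against 159.1 to 272.1), including Epcam (3.33) and Prom1 (3.80). Of 10 stellate cell and fibroblast markers 9 rose (170.6 to 406.9 CPM against 876.8 to 1262 CPM), including Lum (1.93) and Tagln (1.38). Hepatocyte markers went the other way. Of 11 tested, 9 fell and 0 rose, among them Arg1 (-1.29) and Hpd (-1.30), and the sum was 102172 to 120233 CPM in WT against 48080 to 61666 CPM in OGT-deficient liver, still the most abundant list in both groups. Ass1, a hepatocyte marker, was listed with 2 to 12 counts in every library and was not tested. Cps1, another marker of this list, averaged 4847 CPM in WT. The few counts of Ass1 are not taken as its level in liver, and why they are few was not tested.

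Immune and endothelial markers were mixed, beside shares of 31.6% higher and 29.4% lower over all tested genes. Of 10 macrophage and monocyte markers 5 rose and 0 fell, among them Gpnmb (5.01) and Trem2 (2.48), with overlapping sums of 258.8 to 333.5 CPM in WT and 239.3 to 414.3 CPM in OGT-deficient liver. Of 7 endothelial markers Vwf rose by 1.06 and 2 fell, including Clec4g, which fell by 0.59 (sums 330.1 to 456.0 against 209.5 to 391.7 CPM). Of 7 T and NK cell markers (sums 4.74 to 5.84 against 4.87 to 5.91 CPM) 0 passed the edgeR test, 1 had an unadjusted p under 0.05, 1 passed with DESeq2 and 0 with limma voom. That gene, Gzma, was at -0.85 (adjusted p = 0.0513 with edgeR and 0.0373 with DESeq2), and it passed with edgeR without WT 3, WT 4 or OGT-deficient 3 (lowest adjusted p = 0.0301). Cd4 was at 0.37. Among 5 B cell markers (sums 4.58 to 7.48 against 3.58 to 7.59 CPM), Jchain was at a log2 fold change of 0.50. The call of Jchain was lost without WT 3, 4 or 5 or OGT-deficient 1, 2 or 4 (highest adjusted p = 0.164). It was also lost with limma voom (adjusted p = 0.0578) and in edgeR without the low-count filter (0.0671) or with a replicate block (0.115). Of 5 neutrophil markers Ly6g was not analysed here, Mpo and Elane were too low to test, and S100a8 and S100a9 were at 1.12 and 1.10 (list sums 1.77 to 4.12 against 1.79 to 7.18 CPM). The call of S100a8 was lost without WT 3, 4 or 5 or OGT-deficient 1, 2 or 3 (highest adjusted p = 0.0930), and that of S100a9 without WT 3 or 4 or OGT-deficient 1, 2 or 3 (highest adjusted p = 0.0780). With limma voom neither passed (adjusted p = 0.102 for S100a8 and 0.0518 for S100a9). S100a8 also did not pass in edgeR with a replicate block (adjusted p = 0.0707).

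The genes most like Phgdh, Shmt2 and Mthfd2 were ranked by Pearson correlation of log2 CPM over the 9 libraries among genes averaging at least 5 CPM. The points share libraries and fall into 2 groups, so 1010 of 9507 genes reached 0.9 with Phgdh, 1217 of 9506 with Shmt2 and 1068 of 9507 with Mthfd2. Nearest to Phgdh were H2-Q2 (r = 0.997, and 0.969 for deviations from the group means), Galnt10 (0.996 and 0.916) and Phldb1 (0.993 and 0.851). H2-Q2, an MHC class I gene, belongs to a family of near-identical copies and is uncertain. Nearest to Shmt2 were the proline dehydrogenase gene Prodh (0.994 and 0.947), Mtss1 (0.987 and 0.898) and Brf1 (0.985 and 0.859). Nearest to Mthfd2 were Fam83a (0.996 and 0.884), the imprinted noncoding RNA H19 (0.995 and 0.885) and the laminin gene Lama5 (0.994 and 0.684). H2-Q2, Fam83a and H19 averaged 1.56, 1.06 and 1.30 CPM in WT, so they passed the limit of 5 CPM through the OGT-deficient libraries. The deviations come from the libraries that picked these genes, so their correlations are description only.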

How the data were processed

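RNA of 9 whole-liver libraries (5 WT, 4 OGT-deficient) was sequenced. Per the submitters' processing notes, reads were handled with TopHat2 2.1.0 and HTSeq 0.9.1 on build mm10 (GRCm38). The authors deposited whole-number read counts for 24421 symbols per library, without normalization, and 5 summary lines, which were left out of every total and test. Reads outside genes were 8.95 to 10.7% and reads overlapping several genes 1.78 to 2.17% of uniquely aligned reads. The annotation release and strand setting are not stated, and overlapping genes on opposite strands cannot be told apart.

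The count test was edgeR 4.0.16 in R 4.3.3 (quasi-likelihood, genotype as the single term) after filterByExpr and TMM scaling. P-values were adjusted by Benjamini-Hochberg over 14104 genes, with a threshold of 0.05. The standard error is the log2 fold change divided by the square root of F. CPM uses TMM-scaled library sizes, and log2 CPM a prior count of 2. Ratios used counts plus 0.5 and two-sided exact permutation tests (scipy 1.17.1). Positions, exon lengths and 50-base stretches came from GENCODE mouse release 21, and promoters from RefSeq, where all 9 symbols matched. The test was checked on simulated counts. Within groups, 16 pairs of libraries differed by a chi-square per degree of freedom of 23.9 to 135.0, so none was a duplicate.

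The members and lists were chosen with earlier results of these data known. The text names all 9 members, up to 3 genes per pathway list and direction and 2 per cell type list (hepatocyte, cholangiocyte, stellate, macrophage, endothelial, T and NK, B, neutrophil, proliferating) with the smallest adjusted p, and the 3 genes most like each of Phgdh, Shmt2 and Mthfd2. Some genes that this rule names are not reported here. Alternatives were DESeq2 size factors, upper-quartile factors, no filter, CPM of 1 in 4 libraries, DESeq2 1.42.0, limma 3.58.1 voom, a replicate block, 1 CPM added to ratios, transcript length, and each library left out.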

Additional observations from a re-analysis of the deposited data

Results flagged for a closer look

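Mthfd2 in WT 1, at 1.88 CPM, stood apart from the other 4 WT libraries, with a gap to its nearest neighbour of 0.805 of the group's range, above the critical value of Dixon's test for 5 samples. Of 32 groups of values tested in this way (9 genes and 7 ratios in each genotype) this was the only one past its limit, and chance alone passes about 1 in 20. Without WT 1 the log2 fold change of Mthfd2 was 2.37 in place of 2.24.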

How the results depend on the processing

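Of 144 member fold changes under 16 alternatives, 143 kept their direction and side of the threshold. The exception was Mthfd2l without WT 2 (range with a library left out, 0.42 to 0.89). Called members numbered 4 to 5 higher and 3 lower with a library left out. Calls over all genes were 7869 to 8985 under the alternatives, against 8614. Upper-quartile factors moved the median over all tested genes from 0.02 to 0.14 (log2), and the share of higher calls from 51.8% to 62.5%.

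List counts moved by over 1.5 times in these cases. Higher genes of serine and glycine use were 4 with upper-quartile factors and 1 to 3 with a library left out, those of the methionine cycle 1 with the replicate block and 1 to 2 with a library left out, those of purine synthesis 5 with upper-quartile factors, and those of the regulator list 3 to 5 with a library left out.

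Replicate numbers are shared between the groups, but same-numbered libraries did not deviate together (r = 0.05, -0.10, 0.02 and 0.10 for pairs 1 to 4), so the replicate block is an alternative only. In the gene fit it gave 7869 calls. For the ratios, paired by number without WT 5, the smallest exact p is 0.125. The paired differences were 1.13 for Shmt2 to Shmt1, 2.83 for Mthfd2 to Mthfd1, 1.44 for Mthfd2l to Mthfd1, 1.61 for Mthfd1l to Mthfd1, 1.39 for Mthfd2 to Mthfd2l, -1.99 for Psat1 to Phgdh and -3.20 for Psph to Phgdh. With 1 CPM added, Psph to Phgdh was -1.68 and Psat1 to Phgdh -0.84, and Mthfd2 to Mthfd1, at 2.29, became the largest difference. With a library left out, Mthfd2l to Mthfd1 ranged from 1.08 to 1.53.

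With the longest transcript as length, levels were 0.473 (Psat1), 1.61 (Psph), 62.8 (Shmt1), 108.0 (Shmt2), 83.6 (Mthfd1), 0.688 (Mthfd2) and 0.206 (Mthfd2l) CPM per kb in WT, and Phgdh, at 0.185, fell below Mthfd2l to rank 9. In OGT-deficient liver they were 1.96 (Phgdh), 1.27 (Psat1), 1.81 (Psph), 19.5 (Shmt1), 74.1 (Shmt2), 55.1 (Mthfd1), 3.28 (Mthfd2) and 0.330 (Mthfd2l), and Psph stood above Mthfd1l (1.65). Counts of 6 to 20 for Phgdh and 16 to 63 for Mthfd2l limit their precision in WT.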
